A study of Rattus with 4 samples.

Results

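Cald1, the rat gene for caldesmon, held 31 of the 10804 peaks in lists of RNA that came down with RBM25, 13 of 2696 in replicate 1 and 18 of 8108 in replicate 2. Its peaks were taken by the gene name in the deposited annotation, and Cald1 itself was selected on its high tags in these same lists, so its values are a description and no test was run. The samples come from H9C2, an established rat cardiac myoblast line, irradiated with ultraviolet light at 400 mJ per square cm to cross-link protein to RNA. The study has 2 RBM25 immunoprecipitates (IP), each with its own peak list, and 2 inputs of the same line, which were not analysed here. The sample labels name no treatment other than IP or input, and do not say whether RBM25 was overexpressed in the cells used for the IP or whether the replicates were separate cultures.

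Caldesmon binds actin, tropomyosin, calmodulin and myosin, and restrains the sliding of myosin on actin filaments until calcium-calmodulin or phosphorylation lifts the block. Its gene makes a long form in smooth muscle and a shorter form in most other cells, through alternative splicing and alternative promoters. RBM25 is a nuclear protein that associates with the U1 small nuclear ribonucleoprotein, the particle that recognises 5' splice sites, and is known to affect the choice of splice sites.

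A peak is a run of 50-nt bins on a strand. Its tags are the authors' signal, not scaled for depth: a whole number in a peak of 1 bin, and the mean per bin in a longer peak. A peak was counted as shared when it overlapped a peak of the other list on the same strand. All positions are chromosome 4 of mRatBN7.2 unless another chromosome is given. Every sense peak of Cald1 was on the plus strand, so higher positions lie toward the 3' end. The 31 peaks spread over 178.6 kb, and no peak of another gene lay within that span.

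The peaks fell into a dense intronic group of 12, a set of 11 over coding exons and 8 others. The intronic group, 7 peaks in replicate 1 and 5 in replicate 2, occupied 700 nt at chr4:63296800-63297500 on both strands. It lay 116.2 kb before the first coding exon peak, and the coding exon peaks spread over the last 31.0 kb. In the intronic group all 7 peaks of replicate 1 and all 5 of replicate 2 were shared. The group was drawn around a shared sense peak and took in nearby peaks of both lists, so its recurrence is partly fixed by that choice. Over coding exons 1 of 3 was shared in replicate 1 and 1 of 8 in replicate 2, and among the others 1 of 3 and 1 of 5. For the whole gene this came to 9 of 13 in replicate 1, where 61.0% of all peaks were shared, and 7 of 18 in replicate 2, where 20.3% were.

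**Figure D1:**
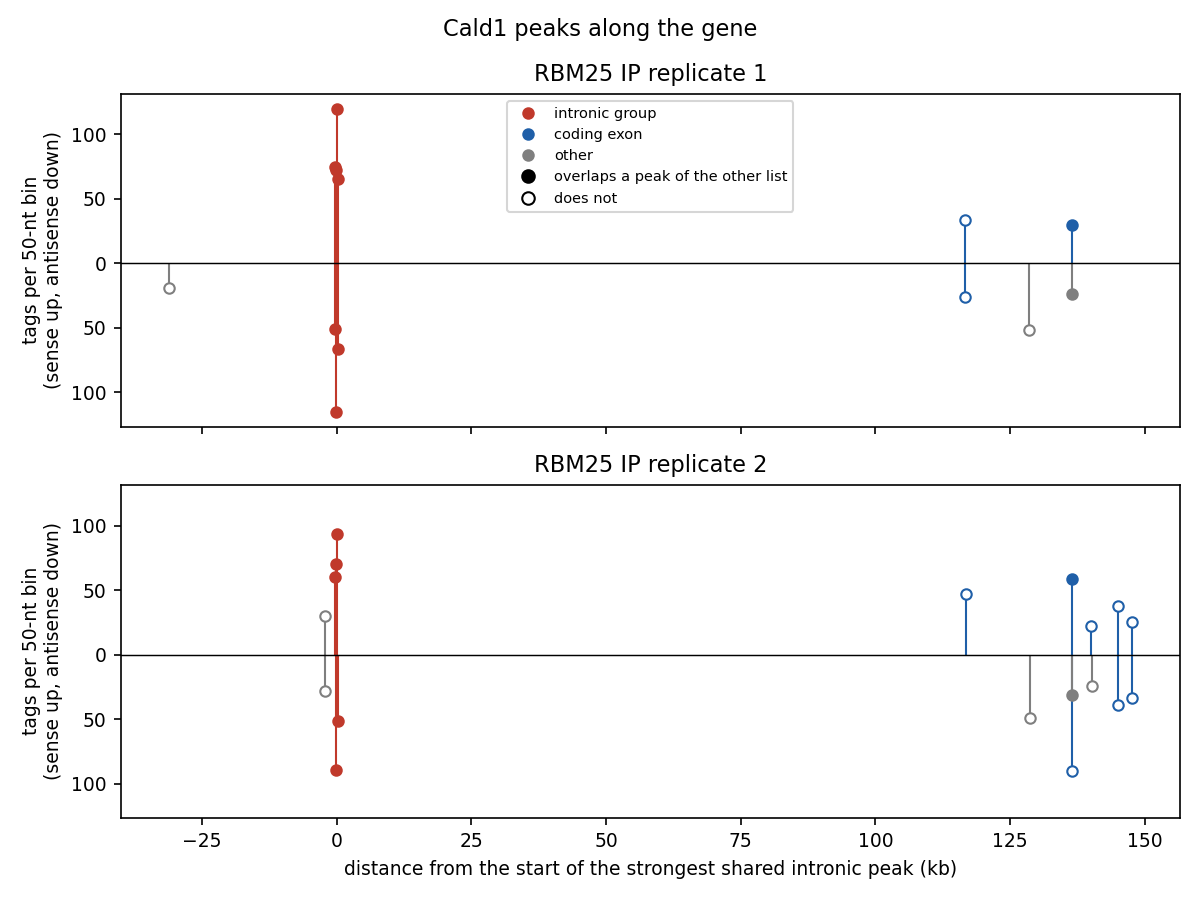
Tags per 50-nt bin of each Cald1 peak, against distance in kb from the start of the strongest shared intronic peak, with sense peaks drawn upward and antisense peaks downward. The intronic group stands at 0 on both strands in both replicates, and the coding exon peaks begin 116.2 kb downstream of it, with more of them in replicate 2 (8) than in replicate 1 (3).

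On the sense strand, replicate 1 had 4 peaks in the intronic group. The one at chr4:63297150-63297250 had 120 tags per bin. The peak at chr4:63296800-63296900 had 74.5, that at chr4:63296950-63297100 had 72.3, and that at chr4:63297300-63297500 had 65.25. All of them lay wholly in intron by the deposited annotation. Replicate 2 had 3 sense peaks there, also wholly intronic. The first 2 had the same ends as in replicate 1, with 60.5 and 70.3 tags per bin, while chr4:63297150-63297450 ran over 6 bins with 93.2 tags per bin and overlapped both remaining replicate 1 peaks.

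On the antisense strand the bins were joined into longer peaks. Replicate 1 had chr4:63296850-63296900 with 51 tags, chr4:63296950-63297250 with 114.8 tags per bin over 6 bins, and chr4:63297350-63297500 with 66.7 over 3 bins. Replicate 2 had chr4:63296850-63297300 with 89.6 tags per bin over 9 bins and chr4:63297350-63297450 with 51.5 over 2 bins. The antisense peaks of 6 and 9 bins were the longest of any gene or intergenic region in their lists. The sense peak of 6 bins was the next longest in replicate 2. Peaks of 4 or more bins numbered 6 in replicate 1 and 14 in replicate 2, and Cald1 held 2 of them in each list. Of its 13 peaks in replicate 1, 7 were longer than 1 bin, beside 5.04% of all peaks, and of its 18 in replicate 2, 6 were, beside 7.04%.

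Bin by bin, the group covered 14 bins. In 8 of them a peak was present on both strands in both replicates, in 5 in a pair of the 4 combinations of strand and replicate, and in 1 bin only on the antisense strand of replicate 2. The sense strand was covered in 10 bins by both replicates and the antisense strand in 9. Sense gaps at chr4:63296900-63296950 and chr4:63297100-63297150 were found in both lists. The right-hand edge differed by 1 bin, with replicate 1 reaching 63297500 and replicate 2 63297450.

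**Figure D2:**
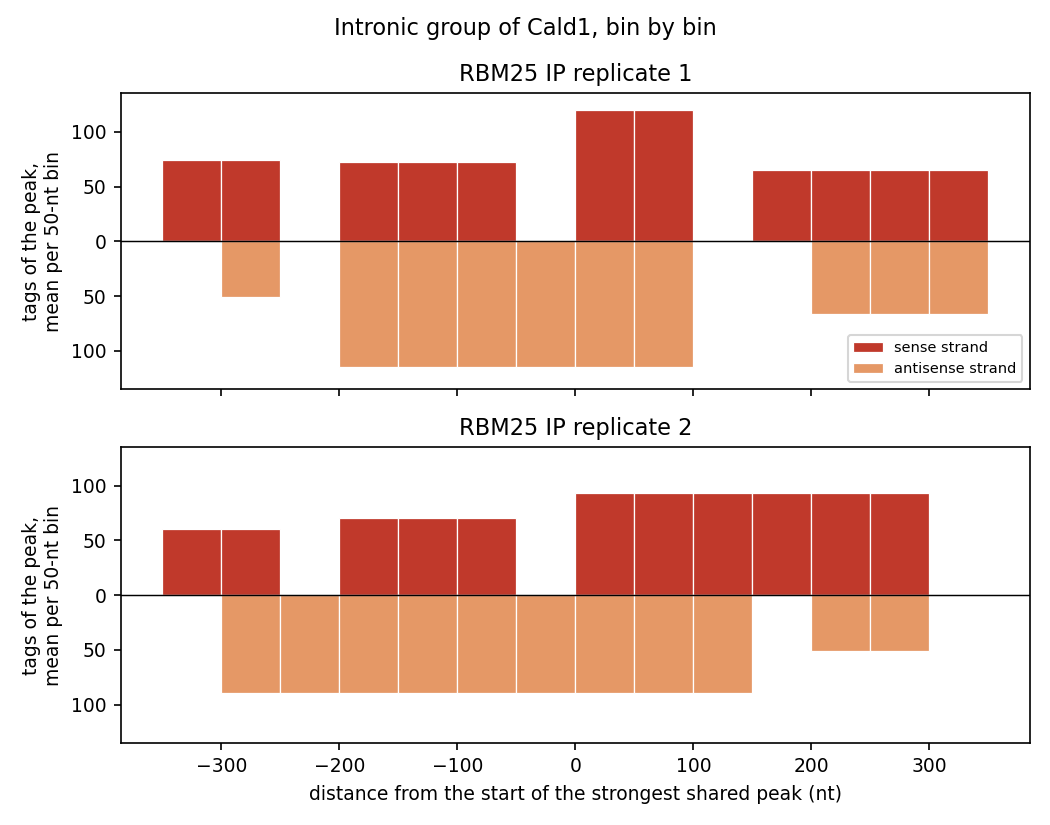
Mean tags per bin of the peak that covers each 50-nt bin of the intronic group, against distance in nt from the start of the strongest shared peak, with the sense strand upward and the antisense strand downward. The bars of a peak are level because only its mean was deposited. In 8 of 14 bins peaks are present on both strands in both replicates.

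Summed over bins, which gives a quantity that grows with covered length, the group held 1807 tags over 21 bins in replicate 1 and 1800 tags over 22 bins in replicate 2. The mean was 86.0 tags per bin in replicate 1 and 81.8 in replicate 2. The strands were close to equal. Antisense bins held 940 tags and sense bins 867 in replicate 1, an antisense share of 52.0% (95% Wilson interval 49.7 to 54.3). In replicate 2 they held 909 and 891, a share of 50.5% (48.2 to 52.8). These intervals treat tags as independent counts and cover counting error only. When each peak's deposited tags were added once regardless of its length, the share over both lists was 40.2%, because fewer and longer peaks carried the antisense signal.

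Equal strands were not particular to Cald1 in these lists. In mirrored pairs of 1 bin, where a sense peak and an antisense peak of a gene have the same ends, the median antisense share was 51.2% over 515 pairs in replicate 1 and 51.1% over 2364 pairs in replicate 2, with ribosomal, mitochondrial and scaffold loci left out. A pair enters only when both strands are listed, which itself pulls the shares together. All 7 intronic group peaks of replicate 1 and all 5 of replicate 2 overlapped a peak of the other strand. Counting opposite peaks under any gene name, over the whole gene 9 of 13 did in replicate 1, beside 46.2% of all peaks, and 13 of 18 in replicate 2, beside 70.0%. The library kit named in the labels keeps strand. Which RNA gave the antisense tags was not tested.

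Peaks wholly in introns were a small class, 48 in replicate 1 and 197 in replicate 2, with median tags of 25.5 and 26. Of these, 60.4% were shared in replicate 1 and 14.2% in replicate 2. By tags the Cald1 group peaks ranked 3, 4, 6 and 7 of the 48 in replicate 1, and 7, 14 and 19 of the 197 in replicate 2. Cald1 supplied 31.3% of the summed tags of the class in replicate 1 (867 of 2772) and 11.6% in replicate 2 (921 of 7910). The next gene had 431 in replicate 1 (LOC310926, on an unplaced scaffold) and 504 in replicate 2 (Fmn1, which encodes an actin-nucleating formin). Among the 29 wholly intronic peaks of replicate 1 that were shared, the highest outside Cald1 was in the importin gene Ipo7, with 49 tags.

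A further pair of intronic peaks lay 1700 nt before the group, at chr4:63295050-63295100, and was present in replicate 2 alone. It had 28 antisense and 30 sense tags, well under the lowest group value of that list, 51.5. The lowest tags listed anywhere were 19 in replicate 1 and 20 in replicate 2, so a weaker signal at this site in replicate 1 would not be listed. The peak nearest the 5' end was a lone antisense peak of replicate 1 with 19 tags, at chr4:63266100-63266150, at the lowest value of its list.

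The intronic group stood above most of the coding exon peaks. In replicate 1 the group ran from 51 to 120 tags per bin, against 26 to 34 in the 3 coding exon peaks. In replicate 2 it ran from 51.5 to 93.2, against 22 to 90 in the 8 coding exon peaks. The ranges did not overlap in replicate 1. In replicate 2 they did: 2 coding exon peaks, with 59 and 90 tags, were above the lowest group peak. Since the group was set apart for its high tags, this difference is part of how the classes were drawn.

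The shared coding exon site was chr4:63433500-63433550, where a fraction of 0.48 of the bin was coding and 0.52 intron. The bin thus held a boundary of exon and intron, but the annotation does not give their order. On the sense strand it held 30 tags in replicate 1, against 59 in replicate 2. In replicate 2 an antisense peak in the same bin had 90 tags, the highest of any Cald1 peak outside the intronic group, and replicate 1 listed none there. An antisense peak 100 nt further on, at chr4:63433650-63433700, was shared, with 24 tags in replicate 1 and 31 in replicate 2, and had no sense partner. Together these were the only recurrent sites of Cald1 outside the intronic group by same-strand overlap.

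Of the 7 sense peaks over coding exons in the lists, 6 held both coding and intron sequence, with chr4:63433500-63433550 counted once in each list. The share of such peaks among all sense coding peaks is not given here, so the count describes Cald1 alone. In all, 67.6% of sense peaks with coding sequence were shared in replicate 1 and 19.7% in replicate 2. For Cald1 it was 1 of 2 in replicate 1 and 1 of 5 in replicate 2. The sense peak without intron sequence was chr4:63413650-63413700 in replicate 1, wholly coding, with 34 tags and 26 in its antisense partner. The nearest sense peak of replicate 2 was 150 nt away, at chr4:63413850-63413900, with 47 tags, a fraction of 0.86 coding and 0.14 intron, and no antisense partner.

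The remaining coding exon peaks were found in replicate 2 alone. At chr4:63437200-63437250 the sense peak had 22 tags and a coding fraction of 0.56, and an antisense peak with 24 tags began where it ended. At chr4:63442150-63442200 there were 39 antisense and 38 sense tags, with a coding fraction of 0.48. At chr4:63444650-63444700, nearest the 3' end, there were 34 antisense and 25 sense tags, and the bin held 3' UTR (fraction 0.14), coding sequence (0.18) and intron (0.68). Replicate 1 lists no peak at these bins, which says only that none passed the authors' calling there.

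Antisense peaks without a sense partner appeared in each list at nearly the same place in the gap between coding exon sites. Replicate 1 had 52 tags per bin over 2 bins at chr4:63425550-63425650 and replicate 2 had 49.5 over 2 bins at chr4:63425750-63425850. The ends were 100 nt apart, so the pair was not counted as shared.

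Tags of overlapping peaks were compared between replicates by class, with only 1 pair over coding exons and 1 in the other peaks. Cald1 was selected on its high tags. Its intronic group was drawn around the shared sense peak with most tags in replicate 1, which can favour that replicate. Among the 7 overlapping pairs of the intronic group, 5 had more tags in replicate 1, with ratios of replicate 2 to replicate 1 between 0.77 and 0.97. The other 2 pairs, at 1.43 and 1.76, joined a shorter replicate 1 peak to a longer replicate 2 peak that also overlapped a stronger one. The same longer replicate 2 peaks made 2 of the 5 pairs, each at 0.78, so the 7 pairs are not independent. Summed over bins, the longer sense peak held 559 tags, against 240 and 261 in the replicate 1 peaks it overlapped. The longer antisense peak held 806, against 689 and 51. Of all 1649 overlapping pairs, 19.9% had more tags in replicate 1, and the median ratio was 1.24. The coding exon pair had a ratio of 1.97 and the antisense pair beside it 1.29. Summed over bins, replicate 2 had 0.996 times the tags of replicate 1 in the intronic group, 3.93 times over coding exons and 1.44 times in the other peaks. These sums move with how many bins were listed. The intronic group had 22 bins in replicate 2 and 21 in replicate 1, with means of 81.8 and 86.0 tags per bin. Over coding exons there were 8 bins and 3, with means of 44.2 and 30. In the other peaks there were 6 bins and 4, with means of 35.3 and 36.8, so that the mean per bin was not higher in replicate 2.

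**Figure D3:**
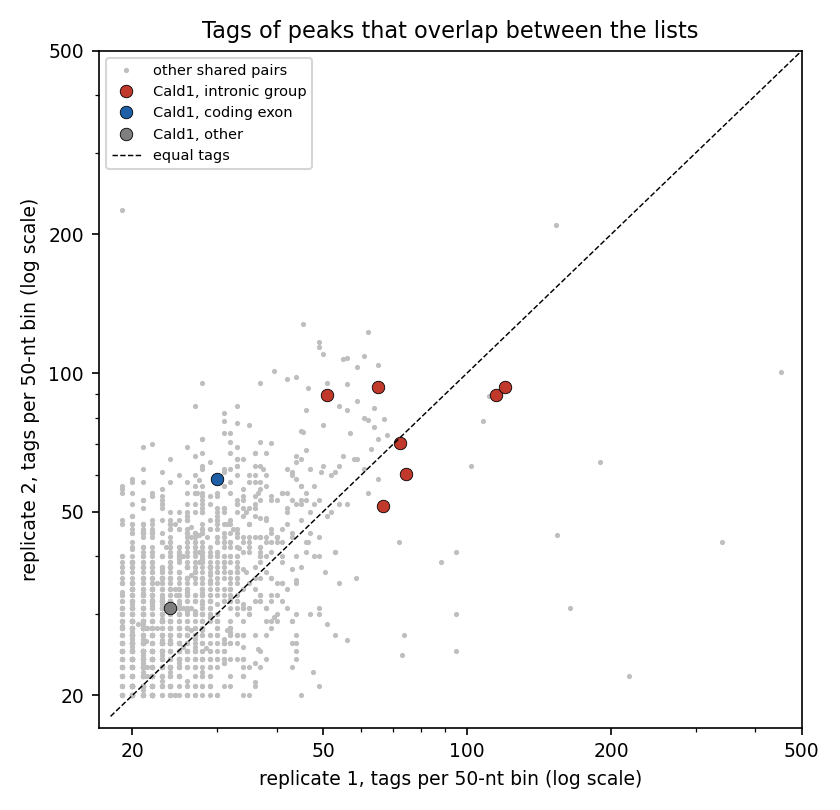
Tags per 50-nt bin in replicate 1 (x axis) and replicate 2 (y axis) for all 1649 pairs of overlapping same-strand peaks, on log axes, with Cald1 pairs coloured by class. Of the 7 intronic group pairs 5 lie below the line of equal tags, while the coding exon pair (30 and 59 tags) lies above it.

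By tags summed over the bins of all its peaks, Cald1 was first of the 922 genes in replicate 1 and first of the 1819 genes in replicate 2. It had 2044 summed tags in replicate 1, and the next gene was the ribosomal RNA gene LOC120093067 with 1818. In replicate 2 it had 2366, and the next was Srrt, whose product (ARS2) works with the cap-binding complex in the nucleus, with 1666. The intronic group made up 88.4% of the Cald1 sum in replicate 1 and 76.1% in replicate 2. Without the group, Cald1 had 237 summed tags in replicate 1 and 566 in replicate 2, and stood at rank 52 and rank 88. By number of peaks it stood at rank 18 in replicate 1 and rank 46 in replicate 2.

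**Figure D4:**
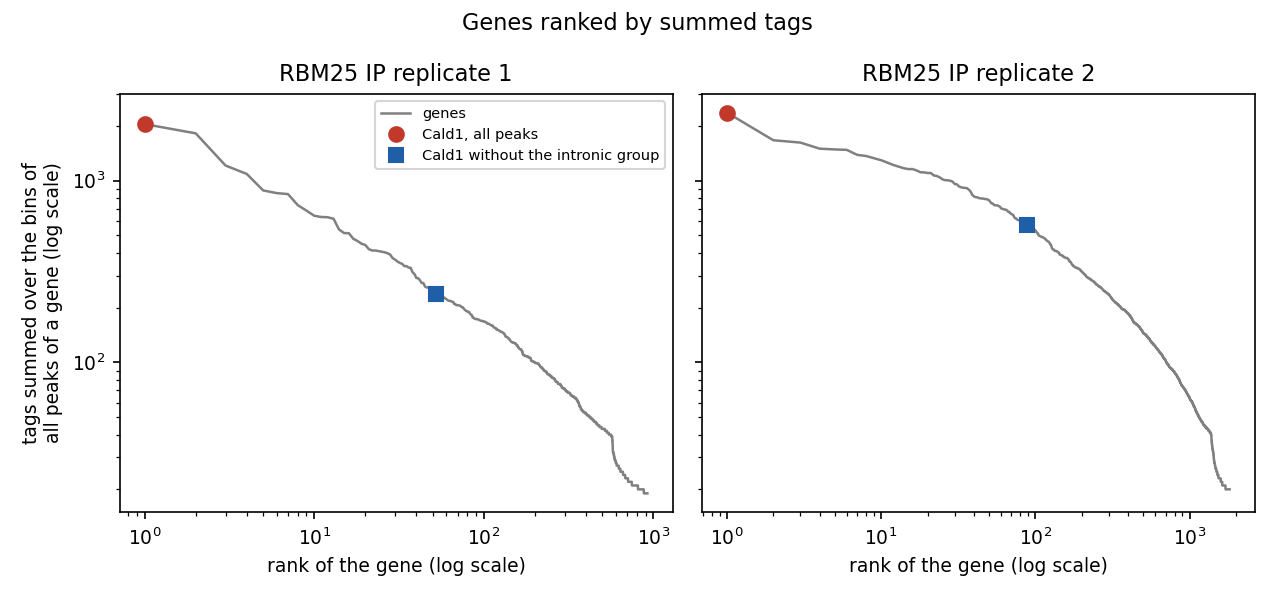
Tags summed over the bins of all peaks of a gene against the rank of the gene, on log axes, for each replicate. Cald1 is first in both with all its peaks (2044 and 2366 summed tags, circles) and falls to rank 52 and rank 88 when the intronic group is left out (squares).

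Ranked by the replicate 1 tags of its strongest shared peak, Cald1 stood at rank 3 of 652 genes. Above it were LOC120093067, with 217.5 tags in replicate 1, against 22 in replicate 2, and the ribosomal RNA gene Rn45s, with 154 against 44.5. Below it came Srrt, with 108 and 78.7, Rn7sl1, the RNA of the signal recognition particle, with 102 and 63, and LOC310926, with 88 and 39. LOC120093067 also had a weaker shared peak with 111 tags in replicate 1, against 89 in replicate 2, so by the lower value of the replicates Cald1, at 93.2, stood only a little above it.

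Few genes had a site laid out like the intronic group. Those compared had a wholly intronic sense peak that overlapped a peak of the other strand in each list, with both strands shared, and were ordered by the lowest tags of the 4 peaks. Cald1 and 8 other genes met this, but in 7 of the 9 the opposite-strand peaks were listed under another gene name. Only Cald1 and Rbms3, an RNA-binding protein gene, had both strands under their own name. The lowest of the 4 values was 89.6 in Cald1 and 29.5 in Rbms3. Rbms3 had 32 antisense and 39.5 sense tags per bin in replicate 1, and 32 and 29.5 in replicate 2, at chromosome 8, 116877350 to 116877450. Among the other 7 the highest was Plk5, a member of the polo-like kinase family, with 39 and 54 sense tags in 1 bin, where the opposite peaks of 42 and 51 tags were listed under Adamtsl5. In LOC108349051 (lowest value 28) the opposite strand was listed under Zwint, in Rpl13a (26) under LOC120100338 and in Ipo7 (25) under LOC120100350. The likeness is in the layout and tags of 4 peaks per gene, over 2 replicates.

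Genes whose products act with caldesmon on actin filaments were set beside it in a list of 52 actin, tropomyosin, myosin, calponin, filamin and regulatory genes. Of these, 17 had a peak in replicate 1 and 29 in replicate 2. Genes with a peak numbered 922 in replicate 1 and 1819 in replicate 2, but no share over all rat genes is given beside these counts. Of the 29 members listed in at least 1 replicate, 14 had a shared peak, beside 34.1% among all genes so listed. The members with the highest tags at a shared peak, taken by the lower of the replicates, were Tpm3, Smtn, Cttn, Ppp1r12a, Myh10 and Flna. The actin-binding cortactin gene Cttn had 36 tags in each replicate, antisense, on chromosome 1 at 199610700 to 199610750. Ppp1r12a, which encodes the targeting subunit of myosin phosphatase, had 34 and 41 sense tags on chromosome 7 at 43574450 to 43574500. The lower value was 50 in Tpm3, a tropomyosin gene, 41 in Smtn and 31 in Flna, all at antisense peaks, and 33 at a sense peak of the nonmuscle myosin gene Myh10. No member had a shared peak wholly in an intron. Such peaks were few in any gene: replicate 1 had 29, in 22 genes, beside 652 genes with a shared peak. Their absence among 14 members therefore says little. Tpm2, Tpm4, Cnn1, Mylk and Myh11 were among the 23 members with no peak in either list.

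The peak lists do not give RNA levels, so the cell type could not be checked by expression. Of 16 genes looked up as markers of the line, Tnnt2 had a shared peak, and Vim and Mef2c had peaks in replicate 2. Des, Myod1, Myog and 10 more had none. Of the smooth muscle genes Acta2 had 6 peaks in replicate 2, and Myh11 and Cnn1 had none. Of the fibroblast genes Col1a1 and Col1a2 had peaks in both lists and Pdgfra had none, and no endothelial or macrophage marker had any. A high value of Cald1 in these lists can stand, among other things, for much bound RNA per transcript or for many Cald1 transcripts, and these cannot be told apart here. Most of the Cald1 sum lay in the 700-nt intronic group. There 52.0% of tags in replicate 1 and 50.5% in replicate 2 were antisense, and the source of that signal was not tested. In a RefSeq name table of a later assembly (GRCr8, used for names and order alone) a noncoding RNA gene, LOC120102254, lies inside Cald1, with Bpgm before it and Agbl3 after it. None of these 3 had a peak in either list. Where LOC120102254 lies relative to the intronic group was not tested because no genome of the files' build was used.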

How the data were processed

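RBM25-bound and input RNA of H9C2 cells was trimmed with micrococcal nuclease and sequenced from stranded libraries, per the labels' protocols, and 1 peak list per IP was used. Per the submitters' processing notes, the tool was HISAT2 and the build mRatBN7.2. How peaks were called, and whether the inputs entered the calling, is not given in the sources used here. Per the file headers and values, the authors' tags are a signal per 50-nt bin. In peaks of 1 bin the deposited p-value was fixed by the tags and the strand (137 of 137 combinations in replicate 1, 199 of 199 in replicate 2).

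Library depth is unknown. Here peaks were matched by strand and overlap, where bins that only touch do not overlap. The intronic group is the set of Cald1 peaks, on either strand and in either list, linked at gaps of at most 500 nt to the strongest shared sense peak. A coding exon peak is a sense peak with any coding sequence, or an antisense peak that overlaps such a peak. Where ribosomal loci were left out, this meant any peak closer than 50 kb to one of a ribosomal RNA gene. Named genes were Cald1, its 3 neighbours on each side in rank, the 5 genes most like it and up to 6 members of the actin list. Other genes were named after their values were seen. Cald1, the lists and the rules were chosen with earlier results of these data known. No test was planned or run. Functions were tested on simulated peaks. Software was matplotlib 3.10.9, scipy 1.17.1, pandas 2.3.3 and numpy 2.4.6 under Python 3.11.15.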

Additional observations from a re-analysis of the deposited data

How the results depend on the processing

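Of 47 recomputed values, 35 stayed within 1.5 times of the count, at the same rank or within the 95% Wilson interval of the share (37.1 to 43.4), and 12 did not. With identical ends required in both lists, 4 Cald1 peaks and 2 intronic group peaks of replicate 1 were shared, in place of 9 and 7. The other overlap rules, among them counting bins that touch, which was added after seeing the data, gave 5 to 7 shared intronic group peaks. With coding sequence over most of the peak, 2 coding exon peaks remained in replicate 2 and 0 of replicate 1 were shared, by construction, since the shared site has a coding fraction of 0.48. With sense peaks alone, replicate 2 had 5 coding exon peaks. The rank of the strongest shared Cald1 peak was 3 by replicate 1 tags and 8 by replicate 2 tags. It was 1 by the lower value, by tags times bins, and without ribosomal, mitochondrial and scaffold peaks. With peaks not required to be shared, it was 11 in replicate 1 alone and 36 in replicate 2 alone. The antisense share of group tags was 40.2% as deposited and 51.3% weighted by bins, and 38.6% to 41.2% as deposited in either list alone. No paired analysis was possible because no comparison between groups was made. Precision is limited by 2 lists of unknown depth.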

Other observations

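The deposited p-values of Cald1 did not follow tags in the longer peaks. In replicate 1 the sense peak with 65.25 tags per bin over 4 bins had a p-value of 3.7e-06 in the authors' deposited table, and the coding peak with 34 tags in 1 bin had 2.2e-08. In replicate 2 the antisense peak of 9 bins, with 89.6 tags per bin, had 9.0e-07, and the antisense coding exon peak with 90 tags in 1 bin had 4.6e-15. Ranked by p-value, these peaks of 4 and 9 bins therefore stand below shorter Cald1 peaks with similar or fewer tags. The order did not go by length alone. The antisense peak of 6 bins in replicate 1, with a deposited p-value of 2.4e-10, stood ahead of the group peaks of 3 and 4 bins there. In replicate 2 the sense peak of 6 bins, at 2.0e-08, stood ahead of the sense peak of 3 bins, at 2.2e-07. Of the Cald1 peaks, 10 of 13 in replicate 1 and 15 of 18 in replicate 2 were at or below the median p-value of their list. By definition, at least as many peaks of any list lie at or below its median as above it. Cald1 was selected on high tags, which with the strand fix the p-value in peaks of 1 bin. The count is therefore partly set by that choice.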
